A study of Mus musculus with 4 samples.

Results

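Amacrine cells are the inhibitory interneurons of the inner retina, and their genes were followed here through 8 of the 32285 genes in the count matrices: Gad1, Gad2, Slc32a1, Slc6a9, Tfap2a, Tfap2b, Pax6 and Gabrr1. The genes were chosen by name, as rows of the feature list whose symbol equals one of these, and all 8 were found. The tissue was the posterior eye of C57BL/6J mice, read by Visium spatial transcriptomics, which counts captured RNA as unique molecular identifiers (UMIs) under each spot of a barcoded grid. A spot covers a small area and can hold several cells of different types.

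There were 4 capture frames, named as biological replicates 1 to 4 in the labels, and each carries the same treatment label, naive plus AAV2/2. The study's design describes an AAV2/2 vector with Wif1 under the CMV promoter (CMV-Wif1-HA-IRES-GFP or CMV-Wif1-HA), a control vector with CMV-IRES-GFP, and retinas at 2 time points after injection. Because the frames share 1 label, these conditions cannot be compared, and a frame may pool them. CMV is a broadly active promoter, and the labels do not say which cells the vector reached. Ages of the animals and the number of animals per frame were not given in the labels. Each p-value below is therefore about variation among these 4 frames, part of which may be technical.

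Most amacrine cells release either GABA or glycine onto bipolar cells, ganglion cells and other amacrine cells. Gad1 and Gad2 encode the enzymes that make GABA from glutamate, Slc32a1 encodes the vesicular transporter that loads both GABA and glycine into synaptic vesicles, and Slc6a9 encodes GlyT1, the plasma membrane transporter that takes up glycine and marks glycinergic amacrine cells. Tfap2a and Tfap2b encode AP-2 transcription factors of the amacrine lineage, Pax6 encodes a homeodomain and paired domain factor kept in mature amacrine, ganglion and horizontal cells, and Gabrr1 encodes the rho1 subunit of ionotropic GABA receptors, which sit on bipolar cell terminals and receive GABA rather than release it.

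All 8 genes matched RefSeq entries of build GRCm38.p6, the build also called mm10. Gad1 lies at chr2:70561303-70602014, Gad2 at chr2:22621015-22693877, Slc32a1 at chr2:158607260-158615747, Pax6 at chr2:105668896-105698410, Slc6a9 at chr4:117835258-117869305, Gabrr1 at chr4:33132556-33163588, Tfap2a at chr13:40713802-40738238 and Tfap2b at chr1:19208908-19238845. RefSeq places noncoding genes over or beside some start sites. Of these, Gad1os had 0 UMIs, Gm14204 by Slc32a1 had 14, Pax6os1 had 22 and Gm26688 by Tfap2a had 5 over all frames. Whether the counting used strand is not given in the sources used here.

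The promoters of 3 genes are shown because the levels of Slc6a9 and Gabrr1 differed between inner retinal spot groups and Pax6 had an AP-2 match in a stretch upstream of its gene. RefSeq held 12 start sites for the 8 genes, and the 250 bases before each were searched on both strands for GCCNNNGGC, the AP-2 motif, and for TAATCC, a motif of OTX and CRX homeodomain factors. The AP-2 motif was present in 2 of the 12 windows, one of Pax6 and one of Gad2, against 13.7% of 32851 promoters of the same length. The TAATCC motif was present in 1 of the 12, at Gad1, against 6.25%. Capitals mark the AP-2 match, and the windows of Slc6a9 (chr4:117835008-117835257, plus strand) and Gabrr1 (chr4:33132306-33132555, plus strand) held neither motif. The Pax6 window is chr2:105668646-105668895, plus strand, and overlaps Pax6os1. A match describes letters in a window and was not tested as a binding site.
Slc6a9: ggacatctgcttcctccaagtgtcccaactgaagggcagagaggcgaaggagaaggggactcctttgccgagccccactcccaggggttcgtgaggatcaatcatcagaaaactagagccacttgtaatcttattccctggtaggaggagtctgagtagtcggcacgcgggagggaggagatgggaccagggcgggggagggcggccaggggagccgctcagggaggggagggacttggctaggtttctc
Gabrr1: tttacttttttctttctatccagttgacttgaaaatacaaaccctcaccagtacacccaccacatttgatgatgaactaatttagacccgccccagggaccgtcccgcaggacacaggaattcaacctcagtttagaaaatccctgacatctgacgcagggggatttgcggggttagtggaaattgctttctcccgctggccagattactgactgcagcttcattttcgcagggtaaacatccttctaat
Pax6: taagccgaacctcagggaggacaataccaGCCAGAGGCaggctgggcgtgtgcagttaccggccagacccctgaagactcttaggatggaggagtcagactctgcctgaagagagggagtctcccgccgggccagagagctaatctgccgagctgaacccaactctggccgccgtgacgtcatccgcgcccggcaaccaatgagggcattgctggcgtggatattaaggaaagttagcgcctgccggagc

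The frames held 1056 to 1243 spots over tissue and 674029 to 1066633 UMIs, with frame 4 the shallowest. The 8 genes together gave 3358 of 3522010 UMIs and were found in 1374 of 4603 spots, or 29.9% of spots. Per frame 31.1%, 34.7%, 30.9% and 22.1% of spots held at least 1 of them. Between frames, 1271 of the 2458 distinct spot barcodes occurred in 2 or more frames. These barcodes name grid positions that every frame shares.

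Levels are given as CPM, counts scaled to one common total of UMIs for every frame or spot group, and are set against each other between frames or groups of 1 gene, not between genes. Gad1 had 80.4, 63.8, 36.1 and 47.5 CPM in frames 1 to 4, and Gad2 had 32.4, 31.9, 15.8 and 28.2. Both enzymes were lowest in frame 3. Their means were 56.9 ± 19.3 and 27.1 ± 7.73 CPM (SD, n = 4 frames), from 204 and 96 UMIs.

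Slc32a1, the shared vesicular transporter, had 484, 550, 422 and 356 CPM, with a mean of 453 ± 83.3 (SD, n = 4) from 1635 UMIs in 827 spots. It was highest in frame 2 and lowest in frame 4. Slc6a9 had 56.9, 60.002, 44.0 and 49.0 CPM, with a mean of 52.5 ± 7.30 (SD, n = 4) from 187 UMIs in 161 spots. The 95% counting intervals of Slc6a9 overlapped in all 4 frames.

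Tfap2b had 155, 128, 122 and 138 CPM (135.9 ± 14.4, SD, n = 4, 477 UMIs). Tfap2a had 48.0, 26.3, 21.5 and 38.6 CPM (33.6 ± 12.02, SD, n = 4, 116 UMIs). Pax6 had 75.9, 103, 64.4 and 92.0 CPM (83.8 ± 17.1, SD, n = 4, 297 UMIs), highest in frame 2.

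By the ratio of the highest to the lowest frame, Gabrr1 varied most of the 8 genes, with 134, 136, 80.2 and 14.8 CPM and a mean of 91.2 ± 57.1 (SD, n = 4). Its highest frame was 9.16-fold above its lowest, and the frame 4 value rests on 10 UMIs in 5 spots. The 95% counting interval of frame 4, 7.11 to 27.3 CPM, did not meet that of frame 3, 62.6 to 101.1 CPM. The spots of each frame that carried bipolar markers numbered 100, 96, 69 and 46, so frame 4 also held the fewest of them. The part of this in the Gabrr1 level was not tested across frames. Gabrr1 UMIs were also bunched, with 72.0% of them in spots that held 2 or more, as were those of Slc32a1 (72.5%), whereas for the other 6 genes this share was 25.7% to 45.5%.

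**Figure D1:**
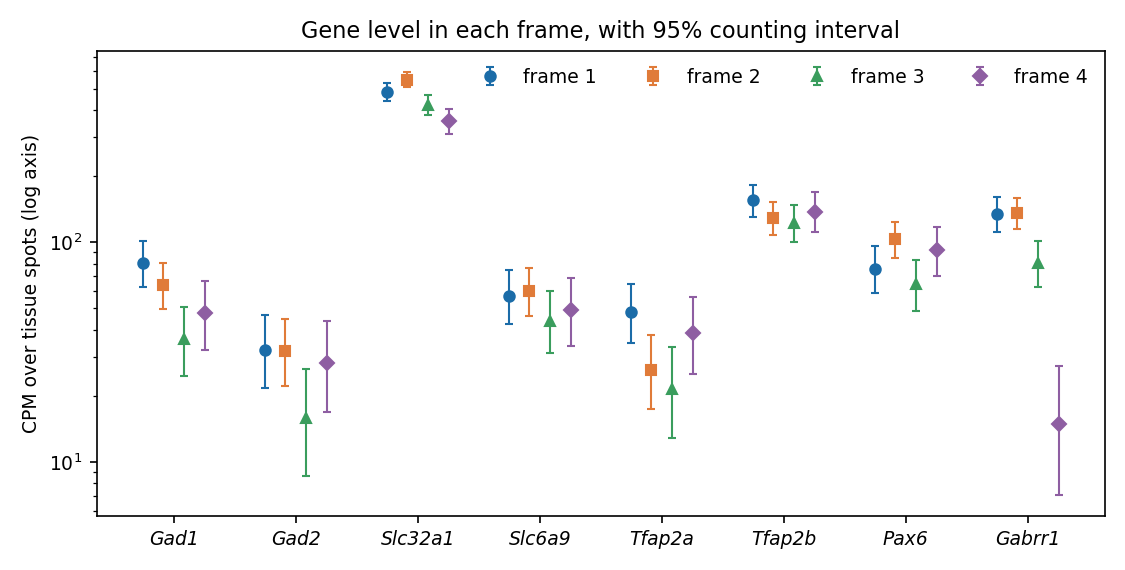
Level of each gene in each of the 4 frames, in CPM on a log axis, with the 95% exact Poisson counting interval as the bar. The Gabrr1 point of frame 4 sits at 14.8 CPM, apart from the 80.2 to 136 CPM of the other frames.

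To place the genes in the retina, spots were grouped by markers that do not include any of the 8. A spot qualified for a class when it held at least 2 UMIs of the class's markers and at least 1.5 times as many as the frame-wide share of those markers gives for its depth. It took the qualifying class with the highest ratio. Spots whose highest class was bipolar or ganglion but that qualified for both formed a mixed group of 28 spots. The groups used here are 311 bipolar-marker spots (17 markers, among them Grm6, Trpm1 and Cabp5), 757 ganglion-marker spots (14 markers, among them Rbpms, Pou4f1 and Slc17a6) and 1029 photoreceptor-marker spots (15 markers, among them Sag, Pdc and Pde6a). A further 696 spots carried markers of the outer coat of the eye, and 1493 were placed in no group. The groups are mixtures of cells: photoreceptor markers summed to 19112 ± 7462 CPM in bipolar-marker spots and 4226 ± 1648 CPM in ganglion-marker spots (SD, n = 4), against 82634 ± 5758 CPM in photoreceptor-marker spots. In sums over spots, fewer cells of a type and less RNA per cell cannot be told apart.

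Taken as a sum, the 8 genes stood at 2076, 2518, 1461 and 766 CPM in bipolar-marker spots of frames 1 to 4, at 1510, 1570, 1377 and 1302 CPM in ganglion-marker spots and at 135, 197, 161 and 125 CPM in photoreceptor-marker spots. Every frame had a higher sum in both inner groups than any frame had over photoreceptors. At least 1 of the 8 genes was found in 60.8% of bipolar-marker spots, 59.2% of ganglion-marker spots and 10.8% of photoreceptor-marker spots. The median depth of the groups differed, with 791 to 994 UMIs per spot in bipolar-marker spots, 662 to 884 in ganglion-marker spots and 532 to 955 in photoreceptor-marker spots.

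**Figure D2:**
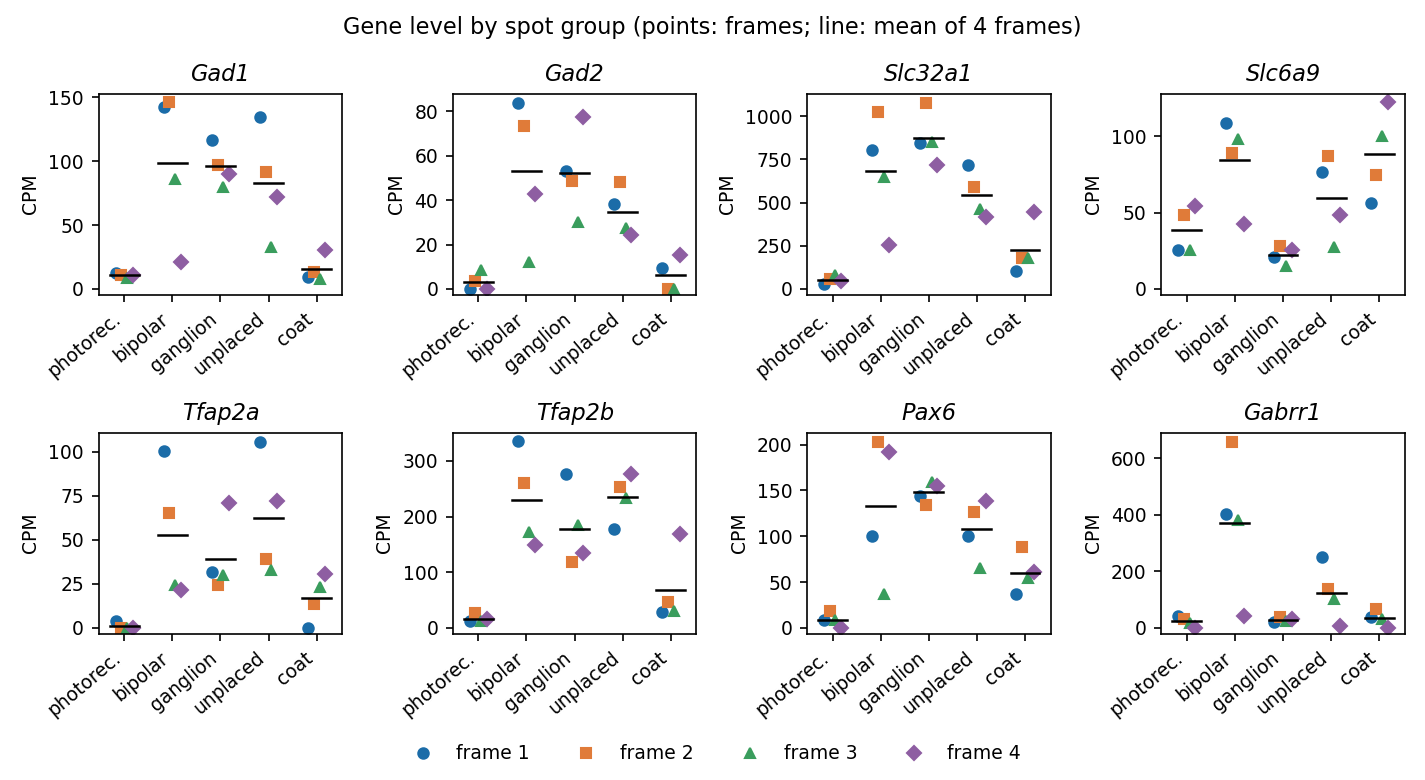
Level of each gene in CPM by spot group, with 1 point per frame and a line at the mean of the 4 frames, on a linear axis that differs between panels. Slc6a9 is lowest over ganglion-marker spots, and Gabrr1 stands high over bipolar-marker spots in frames 1 to 3.

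Against photoreceptor-marker spots, 7 of the 8 genes were higher in bipolar-marker spots by edgeR's quasi-likelihood test with Benjamini-Hochberg adjustment, where 30.7% of the 4664 genes tested passed in either direction, 17.8% higher and 12.8% lower. In ganglion-marker spots 6 of the 8 were higher, where 50.7% passed in either direction, 27.1% higher and 23.6% lower. The median log2 difference over the 8 genes was 3.45 and 3.32 in these comparisons, against 0.01 over all genes tested in both. The comparisons share the photoreceptor-marker spots, so they are given side by side. Genes with low counts in all these groups were not tested. A gene with few UMIs over photoreceptors, such as Tfap2a with 1 or Gad2 with 3, could therefore be tested only through its inner levels. For such genes a higher inner level was largely set in advance, and all genes tested are not a like background. This also holds for the list genes set against photoreceptors below.

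Both GABA enzymes were higher in each inner group than over photoreceptors. Gad1 had 142, 146, 85.9 and 21.3 CPM in bipolar-marker spots, 117, 97.3, 79.8 and 90.2 CPM in ganglion-marker spots and 12.7, 11.2, 8.49 and 10.9 CPM over photoreceptors. The inner groups overlapped each other, and neither overlapped the photoreceptor-marker spots, although the bipolar value of frame 4 rests on 1 UMI. The log2 difference of Gad1 from photoreceptor-marker spots was 2.95 ± 1.10 in bipolar-marker spots (edgeR adjusted p = 2.76e-05) and 2.93 ± 0.16 in ganglion-marker spots (edgeR adjusted p = 3.28e-06). Here and below, ± beside a log2 difference is the SD of the 4 frames' own differences. These use a prior count of 2, which draws them toward 0 where UMIs are few, so they need not center on the fitted value.

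Gad2 had 83.7, 73.1, 12.3 and 42.6 CPM in bipolar-marker spots, 53.2, 48.7, 29.9 and 77.3 CPM in ganglion-marker spots and 0, 3.72, 8.49 and 0 CPM over photoreceptors. All 3 of its photoreceptor UMIs came from frames 2 and 3, and no inner value fell below 12.3 CPM. However, the bipolar values of frames 3 and 4 rest on 1 and 2 UMIs. In frame 3 the bipolar minus photoreceptor log2 difference was 0.21. Over the pooled frames the Gad2 level was 18.3 times higher in bipolar-marker spots (95% counting interval 5.49 to 95.4) and 15.6 times higher in ganglion-marker spots (4.97 to 78.9). Both differences passed edgeR's test, with adjusted p = 0.00143 and 0.000308.

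Slc32a1 had 803, 1023, 651 and 255 CPM in bipolar-marker spots and 846, 1079, 853 and 715 CPM in ganglion-marker spots. Over photoreceptors it had 29.5, 55.8, 80.6 and 43.6 CPM, below every inner value. Its log2 difference from photoreceptor-marker spots was 3.46 ± 1.00 in bipolar-marker spots (edgeR adjusted p = 7.62e-12) and 3.90 ± 0.51 in ganglion-marker spots (edgeR adjusted p = 8.58e-15). It was found in 44.4% of ganglion-marker spots (95% exact binomial interval 40.8% to 48.0%) and in 3.89% of photoreceptor-marker spots (2.79% to 5.26%).

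The AP-2 genes were likewise higher in both inner groups. Tfap2b had 335, 260, 172 and 149 CPM in bipolar-marker spots, 277, 118, 185 and 135 CPM in ganglion-marker spots and 12.7, 26.0, 12.7 and 16.3 CPM over photoreceptors. It was 3.44 ± 0.64 and 3.13 ± 0.80 higher on the log2 scale in the bipolar and ganglion groups (edgeR adjusted p = 2.33e-08 and 1.62e-08). Spots placed in no group also carried Tfap2b, at 235 ± 42.4 CPM (SD, n = 4), where bipolar-marker spots had 228.9 ± 85.3 CPM.

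Tfap2a had 100, 65.0, 24.5 and 21.3 CPM in bipolar-marker spots and 31.9, 24.3, 29.9 and 70.9 CPM in ganglion-marker spots. A single UMI, in frame 1, was found over photoreceptors. The pooled level was 57.3 times higher in bipolar-marker spots (95% counting interval 9.31 to 2362) and 34.0 times higher in ganglion-marker spots (5.63 to 1387), and both passed edgeR's test (adjusted p = 0.00031 and 0.000372). These intervals cover counting error only.

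Pax6 had 100, 203, 36.8 and 192 CPM in bipolar-marker spots, 144, 134, 160 and 155 CPM in ganglion-marker spots and 8.44, 18.6, 8.49 and 0 CPM over photoreceptors. Its ganglion values spanned a narrow range and its bipolar values a wide one, and all 8 inner values lay above the photoreceptor values. The log2 difference was 3.39 ± 0.98 in bipolar-marker spots (edgeR adjusted p = 7.34e-06) and 3.72 ± 0.58 in ganglion-marker spots (edgeR adjusted p = 6.22e-08). Pax6 is also a gene of ganglion and horizontal cells. Of the horizontal cell markers, Onecut2 had 102 ± 109 CPM in bipolar-marker spots, 96.9 ± 48.5 CPM in ganglion-marker spots and 3.84 ± 5.26 CPM over photoreceptors (SD, n = 4), with Lhx1 at 0 in all 3 groups and Onecut1 at 0 in the last 2. The whole list summed to 1391 ± 370, 1894 ± 196 and 427 ± 47.5 CPM in these groups, most of it from the broadly expressed Tpm3 (645 ± 89.2, 1111 ± 122 and 181 ± 15.9 CPM) and Sept4 (569 ± 329, 637 ± 171 and 228 ± 23.8 CPM). In spots with myelin markers the sum was 2860 ± 910 CPM (SD, n = 3 frames) with Onecut1, Lhx1, Calb1 and Slc12a7 all at 0, so the sum does not measure horizontal cells. The part of horizontal and ganglion cells in the Pax6 level was not tested.

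Slc6a9 and Gabrr1 departed from this pattern, and both were lower in ganglion-marker than in bipolar-marker spots. In that comparison 18.8% of the 4664 genes passed in either direction, 10.1% higher and 8.68% lower, and of the 8 genes 2 were lower and 0 higher by edgeR's adjusted test. Slc32a1 was higher at an unadjusted p = 0.0433 by edgeR, and DESeq2 also passed 0 of the 8 as higher. The other 6 genes did not pass edgeR's test, with log2 differences from -0.47 for Tfap2a to 0.44 for Slc32a1 and adjusted p from 0.148 to 0.993. A p that misses the threshold does not show that their levels were alike. The pooled ganglion over bipolar ratio had a 95% counting interval of 0.564 to 1.24 for Gad1, 0.495 to 1.51 for Gad2, 0.331 to 1.07 for Tfap2a and 0.79 to 1.59 for Pax6. For Slc32a1 the ratio was 1.16 (1.01 to 1.33) and for Tfap2b 0.702 (0.536 to 0.923), so these 2 intervals lie on opposite sides of 1. They cover counting error only and leave out the spread between frames, which edgeR's test includes.

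Slc6a9, the glycine transporter, had 109, 89.3, 98.2 and 42.6 CPM in bipolar-marker spots and 21.3, 28.4, 14.97 and 25.8 CPM in ganglion-marker spots. The groups did not overlap, and the ganglion value was lower in 4 of 4 frames. However, the bipolar value of frame 4 rests on 2 UMIs, and the log2 difference in that frame was -0.45. The difference was -1.88 ± 0.68 on the log2 scale (edgeR adjusted p = 0.00735), from 34 UMIs in bipolar-marker and 18 in ganglion-marker spots. It did not pass without frame 1 (-1.71, edgeR adjusted p = 0.0632).

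Slc6a9 was also found in spots outside the inner groups. It had 25.3, 48.3, 25.5 and 54.5 CPM over photoreceptors, overlapping both inner groups in its range, and 56.3, 74.7, 100 and 123 CPM in spots with markers of the outer coat. The coat level, 88.5 ± 29.1 CPM (SD, n = 4), was near the bipolar level of 84.7 ± 29.2 CPM. Spots with keratin markers had 166 ± 91.0 CPM (SD, n = 3 frames), from 7 UMIs. Coat spots also held retinal RNA, with photoreceptor markers at 25349 ± 7231 CPM and bipolar markers at 626 ± 160 CPM (SD, n = 4). Which cells of these spots held Slc6a9 was not tested. Against photoreceptor-marker spots neither the bipolar difference of 0.99 ± 0.90 (edgeR adjusted p = 0.105) nor the ganglion difference of -0.89 ± 0.27 (edgeR adjusted p = 0.138) passed. Without frame 4 the first of these passed (1.33, edgeR adjusted p = 0.0443).

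Gabrr1, the receptor subunit, had 402, 658, 380 and 42.6 CPM in bipolar-marker spots and 21.3, 40.6, 24.9 and 32.2 CPM in ganglion-marker spots. The groups did not overlap, but in frame 4 the bipolar value rests on 2 UMIs and lies close to the ganglion values. The difference was -3.49 ± 1.65 on the log2 scale (edgeR adjusted p = 9.26e-08), with -3.59, -3.70, -3.35 and -0.26 in frames 1 to 4. Bipolar-marker spots held 46.8% of all Gabrr1 UMIs and 10.5% of all UMIs.

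Over photoreceptors Gabrr1 had 42.2, 33.5, 17.0 and 0 CPM, which overlapped its ganglion values. The ganglion minus photoreceptor difference was 0.19 ± 1.11 (edgeR adjusted p = 0.795), whereas the bipolar minus photoreceptor difference was 3.68 ± 0.97 (edgeR adjusted p = 1.04e-08). Gabrr1 was found in 20.6% of bipolar-marker spots (95% exact binomial interval 16.2% to 25.5%) and in 2.11% of ganglion-marker spots (1.21% to 3.41%).

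Müller glia are the radial glia whose cell bodies lie in the inner nuclear layer. Their markers went the same way as Slc6a9 and Gabrr1 between the inner groups. All 8 Müller genes tested, of 10 on the list, were lower in ganglion-marker than in bipolar-marker spots, where 8.68% of all 4664 genes were lower. The list summed to 8684 to 13651 CPM in bipolar-marker spots, 2971 to 5871 CPM in ganglion-marker spots and 1346 to 4398 CPM over photoreceptors. Each of the 10 genes was detected in all 3 groups. Glul, which makes glutamine synthetase, fell by 1.71 ± 0.19 and Rlbp1, which encodes a retinoid binding protein, by 2.48 ± 0.82 (edgeR adjusted p = 9.28e-09 and 9.79e-06). In spots with markers of the outer coat, where Slc6a9 was high, the list summed to 7288 to 21649 CPM, with Kcnj10 at 0. Gabrr1 had 34.1 ± 27.9 CPM there (SD, n = 4). In spots with muscle markers the list summed to 14320 ± 7679 CPM (SD, n = 4), with Kcnj10 and Sox9 at 0. In spots with myelin markers it summed to 10008 ± 4211 CPM (SD, n = 3 frames), and Slc6a9 had 0 CPM in those frames. Outside the retinal groups the sum therefore does not measure Müller glia. The part of glia in the Slc6a9 and Gabrr1 differences was not tested.

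**Figure D3:**
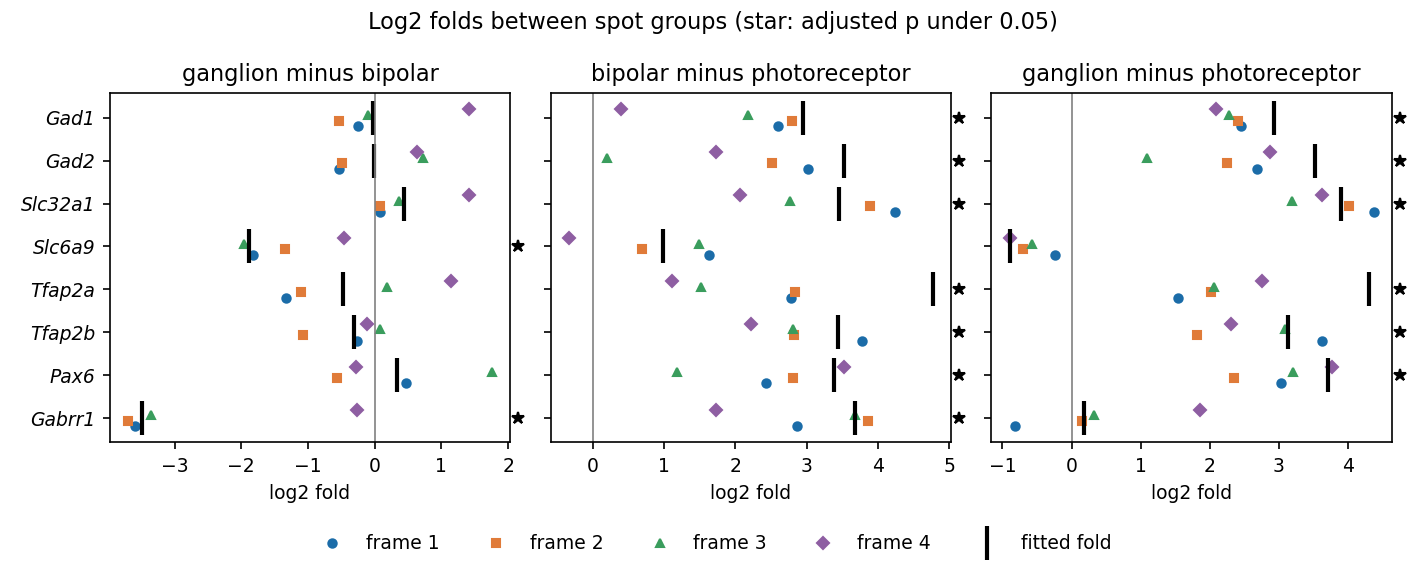
Log2 differences of the 8 genes between spot groups, with 1 point per frame (prior count of 2) and a bar at the value fitted by edgeR; a star marks an adjusted p under 0.05. In the left panel Slc6a9 and Gabrr1 lie below 0 in all frames, and the frame 4 point of Gabrr1 is at -0.26.

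Because Gad1, Gad2 and Slc6a9 are compared within a group, their UMI ratio does not depend on the group's total. The GABA share, Gad1 plus Gad2 over Gad1 plus Gad2 plus Slc6a9, was 67.5%, 71.1%, 50.0% and 60% in bipolar-marker spots and 88.9%, 83.7%, 88.0% and 86.7% in ganglion-marker spots. Every ganglion value was above every bipolar value, although the bipolar values of frames 3 and 4 rest on 16 and 5 UMIs. The means were 62.1 ± 9.31% and 86.8 ± 2.26% (SD, n = 4), from 65 of 99 and 116 of 134 UMIs. The share was higher by 24.7 ± 10.6 percentage points in ganglion-marker spots, in 4 of 4 frames (two-sided exact sign-flip permutation test, p = 0.125, the smallest p that 4 frames allow).

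The same share was 28.4 ± 10.3% over photoreceptors (13 of 48 UMIs) and 18.7 ± 9.27% in spots with coat markers (8 of 46 UMIs). In spots placed in no group it was 66.5 ± 3.52% (95 of 144 UMIs). It is a ratio of UMIs, not of cells. The photoreceptor and coat values lay below every bipolar value.

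**Figure D4:**
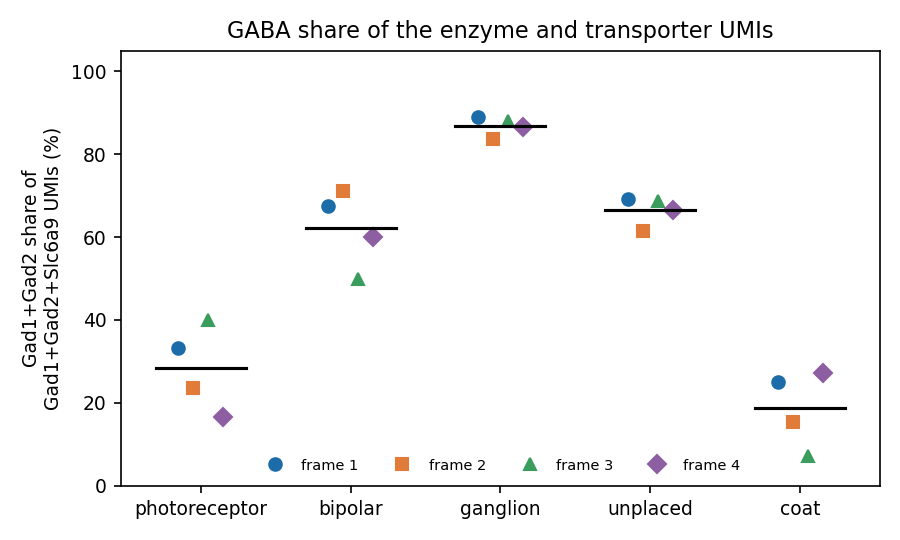
Share of Gad1 plus Gad2 among the UMIs of Gad1, Gad2 and Slc6a9, in percent, by spot group, with 1 point per frame and a line at the mean. Ganglion-marker spots lie between 83.7% and 88.9%, and bipolar-marker spots between 50.0% and 71.1%.

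Within the GABA enzymes, Gad1 made up 63.0%, 66.7%, 87.5% and 33.3% of the Gad1 plus Gad2 UMIs in bipolar-marker spots and 68.8%, 66.7%, 72.7% and 53.8% in ganglion-marker spots. The groups overlapped, and the bipolar value of frame 4 rests on 3 UMIs. The means were 62.6 ± 22.3% and 65.5 ± 8.16% (SD, n = 4), and the difference of 2.88 ± 14.6 points had p = 0.75 (two-sided exact sign-flip permutation test).

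Co-detection asks whether GABA and glycine genes fall in the same spots. The chance of each gene being found after thinning a spot to 500 UMIs was computed for every spot of at least that depth, which were 634, 756, 662 and 490 spots in frames 1 to 4; shallower spots were set aside. In spots with Gad1 or Gad2, Slc6a9 was found in 3.94%, 4.55%, 1.24% and 5.31% of spots in frames 1 to 4, against 2.91%, 2.69%, 1.66% and 2.50% of spots with neither enzyme. The GABA spots were higher in 3 of 4 frames and lower in frame 3. The mean difference was 1.32 ± 1.36 points (two-sided exact sign-flip permutation test, p = 0.25). These shares rest on 1.27, 1.45, 0.169 and 0.923 expected spots with both after thinning, from 8, 9, 1 and 2 spots before it. Without thinning the mean difference was 4.30 points, and within the inner retinal groups, here bipolar-marker, ganglion-marker and mixed spots, it was -0.10 points, where GABA spots were higher in 2 of 4 frames.

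Slc32a1, which loads the product of both enzymes into vesicles, was found more often in their spots. Over the thinned spots of all frames, it was found in 35.5% of Gad1 spots against 16.2% of spots without Gad1, and in 38.2% of Gad2 spots against 16.4% of those without, both in 4 of 4 frames. Within the inner retinal groups the same shares were 38.8% against 30.1% for Gad1 (3 of 4 frames) and 40.02% against 30.2% for Gad2 (4 of 4 frames). So the ratio was 2.19 and 2.33 over all spots and 1.29 and 1.32 within the inner groups.

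Of the 28 pairs among the 8 genes, 25 had a ratio above 1 over all spots, and 8 were higher in 4 of 4 frames. Within the inner retinal groups 18 had a ratio above 1, and 2 were higher in 4 of 4 frames: Gad2 with Slc32a1, and Slc32a1 with Tfap2a at 1.63. The median ratio was 1.93 over all spots and 1.197 within the inner groups. There 5 pairs were higher in 0 of 4 frames, against 2 pairs over all spots. Gad1 with Gad2, the enzymes of one pathway, had a ratio of 2.06 over all spots (higher in 2 of 4 frames) and 0.544 within the inner groups (0 of 4 frames), where 5 spots held both before thinning. Slc6a9 with Tfap2a had the lowest inner ratio, 0.323 (0 of 4 frames), against 2.08 over all spots, and 4 inner spots held both before thinning. After thinning, the inner ratio of Gad1 with Gad2 rests on 0.432 expected spots with both, and that of Slc6a9 with Tfap2a on fewer. Both inner pairs went the other way without thinning, which leaves depth uncorrected. There Gad2 was in 5.68% of Gad1 spots against 4.37% of the others, and Tfap2a in 8.70% of Slc6a9 spots against 3.43%.

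The 3 pairs with a ratio below 1 over all spots were Slc6a9 with Pax6, Pax6 with Gabrr1, and Gad2 with Slc6a9. Pax6 was found in 2.21% of Slc6a9 spots against 3.86% of spots without Slc6a9 (ratio 0.573, higher in 0 of 4 frames). Gabrr1 was found in 2.12% of Pax6 spots against 3.53% of the others (ratio 0.599, higher in 0 of 4 frames). Within the inner groups these ratios were 0.336 and 0.446, again higher in 0 of 4 frames, and Gad2 with Slc6a9 had 0.402 (0 of 4 frames). Over all spots these pairs rest on 1.40, 2.05 and 0.561 expected spots with both after thinning, from 14, 16 and 7 spots before it. Without thinning, which leaves depth uncorrected, the shares over all spots went the other way. Pax6 was in 8.70% of Slc6a9 spots against 4.89%, Gabrr1 in 6.93% of Pax6 spots against 3.52%, and Slc6a9 in 8.86% of Gad2 spots against 3.40%. Within the inner groups without thinning, Pax6 with Gabrr1 stayed lower (7.20% against 7.72%), and the other pairs were higher. No test was made over spots, which are not replicates.

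**Figure D5:**
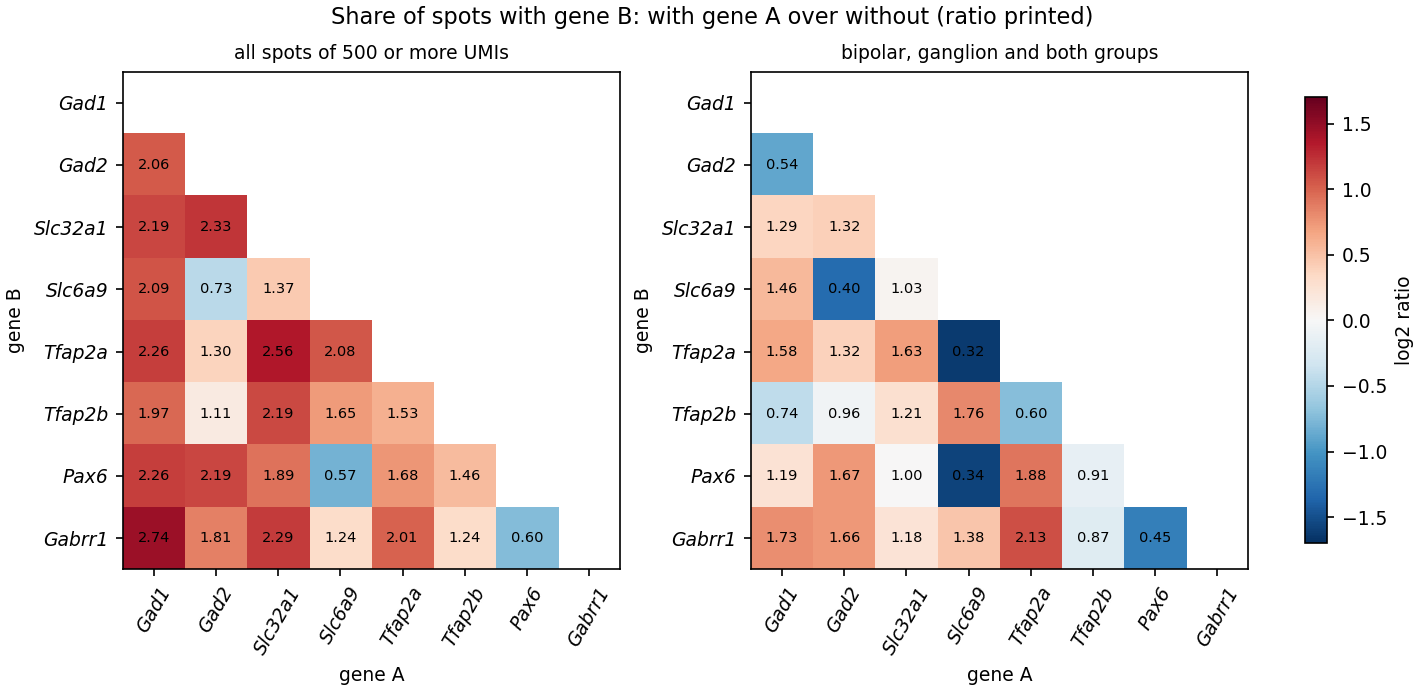
Ratio of the share of spots with gene B among spots with gene A to that among spots without gene A, after reduction to 500 UMIs per spot, for all spots (left) and for bipolar-marker, ganglion-marker and mixed spots (right). Colour is the log2 of the printed ratio, and the ratios of Slc6a9 with Pax6 (0.573 left) and Pax6 with Gabrr1 (0.599 left) lie below 1 in both panels.

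Other genes of inhibitory transmission were read from lists by role. Of 15 genes of GABA and glycine transport and turnover, 8 were tested, of which 5 were higher and 1 lower in bipolar-marker than in photoreceptor-marker spots, where 17.8% of all genes tested were higher and 12.8% lower. In ganglion-marker spots 6 were higher and 2 lower than over photoreceptors, where 27.1% of all genes were higher and 23.6% lower. Slc6a11, a GABA transporter gene, was higher than over photoreceptors by 3.77 ± 0.95 in bipolar-marker and 3.07 ± 0.44 in ganglion-marker spots on the log2 scale (edgeR adjusted p = 4.72e-06 and 2.71e-05). Slc6a5, which encodes GlyT2, had 6 and 7 UMIs in the bipolar and ganglion groups and did not pass the filter on low counts.

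Between the inner groups, 3 of the 8 genes tested on this list were lower in ganglion-marker spots, 1 was higher and 4 did not pass, where 8.68% of all genes were lower and 10.1% higher. Slc6a6, the taurine transporter, had 507 ± 195 CPM in bipolar-marker and 57.1 ± 13.1 CPM in ganglion-marker spots (log2 difference -2.99 ± 0.30, edgeR adjusted p = 3.80e-10), and 756 ± 134 CPM over photoreceptors. Glul was another of the 3, and it is also on the Müller list.

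Of 23 genes on the GABA receptor list, 11 were tested; 6 were higher in bipolar-marker and 7 in ganglion-marker than in photoreceptor-marker spots, where 17.8% and 27.1% of all genes were higher. Between the inner groups 1 was higher in ganglion-marker spots, 1 was lower and 9 did not pass, where 18.8% of all genes passed in either direction, and the median log2 difference was 0.76 over the 11 and 0.00 over all genes. The higher one was Gabarapl1, at 1.13 ± 0.59 (edgeR adjusted p = 0.00428), a gene of the GABARAP family and not of a receptor subunit. The lower one was Gabrr2. Gabrr2, the rho2 partner of Gabrr1, had 76.4 ± 23.8 CPM in bipolar-marker and 5.93 ± 4.58 CPM in ganglion-marker spots, a log2 difference of -3.43 ± 0.38 (edgeR adjusted p = 0.0029) that was lower in 4 of 4 frames. Gabrr3, of the same subunit family, had 4 UMIs in bipolar-marker and 0 in ganglion-marker spots.

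Of 11 genes of glycine receptors and the inhibitory scaffold, 5 were tested, and 3 were higher in each inner group than over photoreceptors, where 17.8% (bipolar) and 27.1% (ganglion) of all genes were higher. Between the inner groups 0 of the 5 passed edgeR's adjusted test, 1 had an unadjusted p under 0.05, DESeq2 passed 0, and their median log2 difference was 0.34. Glrb, the shared beta subunit, had 56.0 ± 36.1, 87.2 ± 44.9 and 6.39 ± 1.89 CPM in bipolar-, ganglion- and photoreceptor-marker spots. Iqsec3, a synaptic exchange factor gene, had a log2 difference of 2.32 ± 0.33 in bipolar-marker spots (edgeR adjusted p = 0.000379). The alpha subunit genes Glra1 and Glra2 had 2 UMIs each in bipolar-marker spots, and 0 and 8 in ganglion-marker spots.

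Among 20 genes of starburst and other amacrine subtypes, 5 were tested. Of these, 2 were higher in each inner group than over photoreceptors, where 17.8% (bipolar) and 27.1% (ganglion) of all genes were higher. Between the inner groups 1 was higher in ganglion-marker spots, 1 was lower and 3 did not pass, where 10.1% of all genes were higher and 8.68% lower. Calb2, the calretinin gene of many amacrine and ganglion cells, had 140 ± 51.5 CPM in bipolar-marker and 729 ± 69.1 CPM in ganglion-marker spots (log2 difference 2.53 ± 0.35, edgeR adjusted p = 1.03e-08). Prox1, a homeodomain gene of AII amacrine, bipolar and horizontal cells, had 177 ± 81.1 and 15.1 ± 10.6 CPM (-3.26 ± 0.92, edgeR adjusted p = 4.65e-05). Chat, the defining gene of starburst cells, had 0 UMIs in bipolar-marker and 4 in ganglion-marker spots, and Th, the gene of dopaminergic amacrine cells, had 3 and 0.

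Of 16 transcription factors on a list of amacrine regulators, 7 were tested, and 6 were higher in bipolar-marker and 5 in ganglion-marker than in photoreceptor-marker spots, where 17.8% and 27.1% of all genes were higher. Between the inner groups 3 were higher in ganglion-marker spots, 2 were lower and 2 did not pass, where 10.1% of all genes were higher and 8.68% lower. Ebf1 had 44.6 ± 19.9 and 135 ± 48.9 CPM in bipolar- and ganglion-marker spots and 1 UMI over photoreceptors. Neurod4, a proneural factor also known from bipolar cells, had 138 ± 94.2 and 6.45 ± 2.55 CPM (log2 difference -4.02 ± 0.61, edgeR adjusted p = 4.99e-05). Meis2, a homeodomain gene, was higher in ganglion-marker spots by 0.68 ± 0.34 (edgeR adjusted p = 0.0024). Ptf1a, which specifies amacrine and horizontal cells in development, had 0 UMIs in each of these groups.

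Across 31 levels, 1 for each frame and spot group, the genes most like each pattern were ranked among 4854 genes by Pearson's r of log2(CPM + 10), as a description, since the points share libraries and depth. For Gad1, Gad2 and Slc32a1 summed they were Kcnj9 (r = 0.92), a potassium channel gene, followed by Gpr153, Tmsb10, Snhg11 and Pcdhb17 (0.85 to 0.81). For Slc6a9 they were Zfp444 (0.85), Igf1r, Fbf1, Poldip3 and Ammecr1 (0.81 to 0.77). For Gabrr1 they included Hacl1 (0.69), Tspan15, Acsl3 and F2r (0.68 to 0.65). Between members, r ranged from 0.12 for Tfap2b with Gabrr1 to 0.71 for Gad1 with Tfap2b, and Slc6a9 had 0.12 to 0.35 with the others.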

How the data were processed

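The deposited files hold counts, whole numbers of UMIs per gene and spot, which the authors made with Space Ranger. The version was 2.0.0, per the file headers, and the genome mm10, per the submitters' processing notes. Sources used here name no annotation release and no strand setting. Spots over tissue from all 4 frames were used, with no doublet caller and no images.

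UMIs were summed per frame and spot group, and a frame entered a group with at least 10 spots. One edgeR 4.0.16 fit (robust quasi-likelihood, TMM, filterByExpr with a minimum count of 10) covered bipolar, ganglion, mixed and photoreceptor groups with frame as a block, since each frame supplies every group. The mixed group reached 10 spots in frame 2 only. Leftover values of paired groups correlated at 0.035 to 0.112. Markers that placed spots entered neither library sizes nor tests. P-values were adjusted by Benjamini-Hochberg over 4664 genes at 0.05. On simulated counts the fit recovered 18% of 2-fold and 77% of 4-fold changes for ganglion minus bipolar. These were 28% and 80% for bipolar minus photoreceptor, and 34% and 87% for ganglion minus photoreceptor. False calls were 1.82% to 4.04% of the calls. The simulated counts had the same profile in all groups but for 100 changed genes at each fold, no frame effect and the same dispersion for every gene. The data differ in these, so the rates need not hold for them. Shares were compared over frames by exact sign-flip permutation (SciPy 1.17.1). Counting intervals are exact Poisson or Clopper-Pearson at 95%. UMIs of one spot are not independent, so these cover counting error only. Alternatives were DESeq2 1.42.0, RLE scaling, no filter, no block, other spot rules and leaving out each frame.

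Text names the 8 members, up to 3 passing genes per list and comparison with the lowest p, and the 5 most similar genes per pattern. Other list genes with their UMIs (Slc6a5, Gabrr3, Glra1, Glra2, Chat, Th and Ptf1a) were chosen after their values were seen. Members and lists were chosen with earlier results of these data known. Some genes that this rule names are not reported here. Sequences are from RefSeq.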

Additional observations from a re-analysis of the deposited data

Results flagged for a closer look

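Of 61 sets of 4 frame values checked, 3 had 1 frame far from the rest, and chance alone flags about 1 in 20 such sets. Tfap2a had 70.9 CPM in ganglion-marker spots of frame 4, against 24.3 to 31.9 CPM in the other frames. Tfap2a had 4.22 CPM over photoreceptor-marker spots of frame 1, from 1 UMI, against 0 in the other frames. The log2 difference of Gabrr1 between ganglion- and bipolar-marker spots was -0.26 in frame 4, against -3.35 to -3.70 in the others, and its bipolar side there rests on 2 UMIs.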

How the results depend on the processing

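The counts of genes that passed edgeR's test fell when a frame was left out, to 535 to 747 of 877 for ganglion minus bipolar (535 without frame 2), 939 to 1280 of 1431 for bipolar minus photoreceptor (953 without frame 1 and 939 without frame 2) and 1819 to 2149 of 2366 for ganglion minus photoreceptor. Ganglion minus bipolar held 472 higher and 405 lower genes, but 383 higher and 463 lower with RLE normalization, 320 and 351 without the axonal ganglion markers (neurofilament genes and Sncg), and 319 and 290 with DESeq2, so which direction had more genes depends on the setting. With no replicate block the counts were 823, 1419 and 2347, and the fit without the block changed no call among the 8 genes. Small ganglion minus bipolar differences that passed in no fit turned sign: Gad1 was 0.045 with DESeq2, 0.11 with no filter, 0.016 with at least 3 marker UMIs and -0.27 to 0.20 without 1 frame (above 0 without frame 1 or 2). Gad2 was 0.049 with DESeq2, 0.10 with no filter, 0.29 without the axonal markers and -0.27 to 0.28 without 1 frame (above 0 without frame 1 or 2). Tfap2a was 0.21 without the axonal markers, and Pax6 was -0.073 to 0.69 without 1 frame (below 0 without frame 3). Gabrr1 in ganglion minus photoreceptor was -0.055 without the axonal markers and -0.24 to 0.78 without 1 frame (below 0 without frame 4). The Slc6a9 ganglion minus bipolar difference did not pass when a spot needed a ratio of 2 (-1.67, edgeR adjusted p = 0.0555) or without frame 1, over a range of adjusted p from 0.00482 to 0.0632. Gabrr1 passed there under all alternatives run, from -3.23 to -3.92. The GABA share difference ranged from 23.5 to 27.1 points over other spot rules and from 20.2 to 28.7 without 1 frame. The Gad1 share difference was -11.0 points at a ratio of 2 and ranged from -2.995 (without frame 4) to 8.77 without 1 frame. The co-detection difference of 1.32 points was 4.30 without thinning (above 0 in 4 of 4 frames), 0.494 at 300 UMIs, 0.545 with Slc32a1 among the GABA genes and -0.10 within the inner groups, and ranged from 0.823 to 1.90 without 1 frame. The causes were not tested. Depth limits the rarer genes most, since Gad2, Slc6a9 and Tfap2a rest on 18 to 40 UMIs per inner group.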
